A study of Rattus norvegicus with 5 samples.

Results

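Tendon stem/progenitor cells (TSPCs) of the rat were profiled on arrays of 10141 probe sets, which carried 7235 named genes, and 39 of these genes were taken as ephrin, semaphorin, slit, netrin and Notch signaling genes. They were chosen by a rule on gene symbols, which was set with earlier results of these data known. The rule took probe sets whose symbol starts with Epha, Ephb, Efna, Efnb, Sema, Plxn, Nrp, Robo, Slit, Notch or Jag. It also took symbols that start with Hes or Hey plus a digit, and Dll1, Dll4, Unc5b, Unc5c, Ntn1 and Ntn4. Each of the 39 had 1 probe set. No named probe set matched a plexin, Dll1 or Dll4, and these genes were not analysed here. The prefixes also took Jagn1 and Slitrk6, which belong to other families and are described apart.

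In the study, TSPCs were isolated by enzymatic digestion of Achilles tendons of 3-month-old male Sprague-Dawley rats and expanded from picked colonies. From passage 3 to passage 12 the medium held either 20 μmol/L prim-O-glucosylcimifugin (POG), a chromone from Saposhnikovia root, or the same amount of the vehicle dimethyl sulfoxide (DMSO). RNA at passage 12 was hybridized to 3 DMSO arrays and 2 POG arrays, and the comparison asks how guidance and Notch genes of late-passage cells differed after sustained POG. The labels name biological replicates but no separate cultures or animals, so p-values reflect only the scatter among the arrays, part or all of which may be technical. All values are log2 signals, all differences are POG minus DMSO on that log2 scale, and "rose" or "fell" means an adjusted p under 0.05 in limma over all 10141 probe sets.

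Ephrins, semaphorins, slits and netrins are cues, bound to a cell's surface or to the matrix or secreted, that tell a neighboring cell to retract, adhere or move. They act through Eph receptor tyrosine kinases, through plexins with neuropilin co-receptors, through Robo receptors, and through Unc5 and Dcc family receptors. In the Notch pathway a ligand such as Jagged 1 on one cell triggers cleavage of a Notch receptor on the next, and the freed intracellular part joins the DNA-binding protein Rbpj to switch on Hes and Hey repressors. In connective tissue these systems are known from vessel growth, mural cell identity, skeletal patterning and mesenchymal differentiation.

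The arrays had medians of 8.36 to 8.52, and signals ran from 2.98 to 19.47. Taken 2 at a time, arrays within a group scattered over the 39 genes with an SD of 0.356 to 0.375, and a DMSO and a POG array with an SD of 1.34 to 1.49. Over all probe sets these ranges were 0.323 to 0.374 and 0.991 to 1.04. The label of the cells was checked on markers. Of 19 tendon and mesenchymal markers 14 were measured, 4 rose and 2 fell. The log2 of their summed signal was 20.50 to 20.56 on DMSO arrays and 20.72 to 20.81 on POG arrays. Signals were summed off the log scale, so the brightest genes dominate this sum and those of the later lists. Here these genes included Col1a1 and, on POG arrays, Dcn. The list held very large changes, as Dcn, the proteoglycan decorin, rose by 8.24 from a mean of 10.16 to 18.40 and Fmod, the tendon proteoglycan fibromodulin, rose by 6.57 from 10.07 to 16.64. The growth factor receptor gene Pdgfra rose by 2.64, and Cd44, the hyaluronan receptor, fell by 1.26. Col1a1, the main tendon collagen, was not called and had means of 19.39 and 19.25, whereas Scx, the tendon transcription factor scleraxis, had low means of 6.08 and 5.77 and was also not called. Tnmd and Mkx had no named probe set and were not analysed here. A bulk array cannot tell fewer cells of a type from less RNA per cell.

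In POG-treated cells 6 of 8 Notch genes and 4 of 8 slit and netrin genes fell, and ephrin and semaphorin genes changed in both directions. The largest falls were those of semaphorin 7A (Sema7a, -4.68 ± 0.23, SE), ephrin-B1 (Efnb1, -3.37 ± 0.18), the netrin receptor Unc5b (-2.82 ± 0.20), Jag1 (-2.69 ± 0.17) and the slit receptor Robo2 (-2.46 ± 0.16). The largest rises were those of semaphorin 3A (Sema3a, 1.73 ± 0.17), the receptor Epha7 (1.61 ± 0.22), semaphorin 3C (Sema3c, 1.53 ± 0.16) and the receptor Ephb2 (1.41 ± 0.25). In total 24 of the 39 genes were called (61.5%, against 46.3% of all probe sets), and 10 rose and 14 fell. Of all probe sets 26.7% rose and 19.6% fell, so the share of members that rose (25.6%) was near the background and the share that fell (35.9%) was above it. This excess was not tested. The median difference was -0.36 over the members and 0.11 over all probe sets. The groups did not overlap for any of the 24 genes called, nor for 8 of the 15 others. At the study's own thresholds of p and of 1.5-fold, 8 members rose and 14 fell, against 24.1% and 17.6% of all probe sets. Without overlap, 12 members were higher and 20 lower (30.8% and 51.3% of members), against 38.3% and 28.5% of all probe sets. With each array centered on its median, 7 members rose and 16 fell, because Epha4, Jagn1 and Slitrk6 no longer passed and Efnb2 and Sema6d did. Centering also moved the calls over all probe sets, from 2707 that rose and 1987 that fell (57.7% of those called rose) to 2291 and 2307 (49.8%). Without POG replicate 2, 5 rose and 12 fell.

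**Figure D1:**
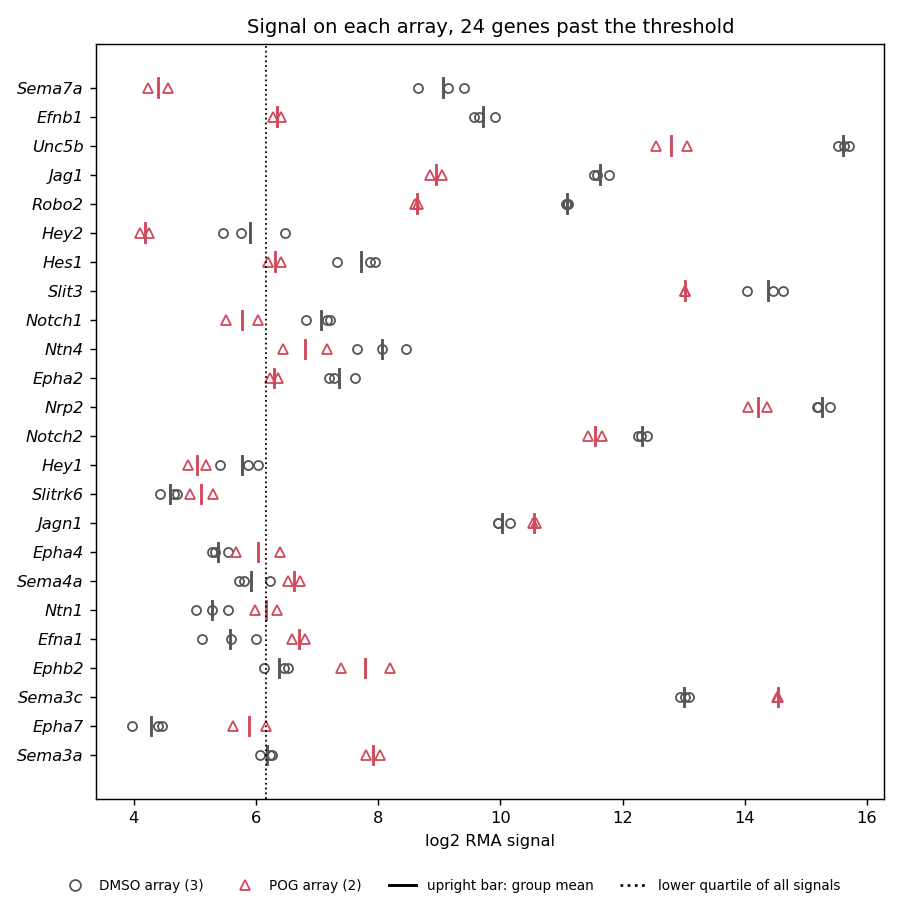
The log2 RMA signal on each array is plotted for the 24 genes past the threshold, ordered by difference, with circles for the 3 DMSO arrays, triangles for the 2 POG arrays, upright bars for group means and a dotted line at 6.17, the lower quartile of the signals. The POG arrays lie below every DMSO array for the upper 14 genes and above for the lower 10, and signals of different genes are not comparable.

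A signal of 6.17 (the lower quartile over all arrays) or less may be background, since no detection calls were used. Both group means lay at or under it for 12 members, 4 of which rose and 2 fell. Among the 22 members with both means above it, 4 rose and 10 fell. The matching shares over all probe sets are not given here. Where one mean is that low the difference may be compressed, and whether steps of the deposited scale match RNA amounts was not checked.

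Of 8 Notch pathway genes 6 fell and 0 rose, with a median difference of -1.03. The fall covered the measured ligand, 2 of 3 receptors and 3 of 4 genes of the Hes and Hey families. Jag1, the transmembrane ligand Jagged 1, read 11.78, 11.59 and 11.53 on DMSO arrays and 9.04 and 8.85 on POG arrays. It fell by 2.69 ± 0.17, a 6.45-fold lower signal (adjusted p = 1.83e-06), with the POG arrays more than 2 log2 units below every DMSO array. The receptor Notch1 read 7.17, 7.22 and 6.82 in DMSO-treated cells and 6.03 and 5.52 in POG-treated cells, and fell by 1.30 ± 0.21 (adjusted p = 0.000972). Its POG mean, 5.78, was in the range of background. Notch2, the receptor read well above background in both groups, was at 12.40, 12.31 and 12.26 against 11.67 and 11.44. It fell by 0.77 ± 0.17 (adjusted p = 0.00522) with no overlap of the groups, but did not pass without POG replicate 2 (-0.65, adjusted p = 0.0545). Notch3, a receptor best known from mural cells, had low means of 4.39 and 3.94 and did not pass (-0.45, 95% interval -0.98 to 0.076, adjusted p = 0.141).

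The Hes and Hey genes encode basic helix-loop-helix repressors, of which Hes1, Hey1 and Hey2 are textbook targets of Notch. Hes1 read 7.33, 7.95 and 7.87 on DMSO arrays and 6.20 and 6.42 on POG arrays, and fell by 1.41 ± 0.22 (adjusted p = 0.000676). Hey2 read 5.47, 6.48 and 5.76 against 4.26 and 4.10, and fell by 1.72 ± 0.27 (adjusted p = 0.000727). The Hes1 readings were all above the lower quartile, whereas both Hey2 means were under it. Hey1 read 5.87, 5.41 and 6.04 against 4.89 and 5.19, also a low signal, and fell by 0.73 ± 0.22 (adjusted p = 0.0211). The Hey1 call was lost without DMSO replicate 3 (-0.60, adjusted p = 0.0607), without POG replicate 1 (-0.58, adjusted p = 0.150) and without POG replicate 2 (-0.88, adjusted p = 0.0515). Hes2, at low means of 4.63 and 4.37, did not pass in limma (-0.26, adjusted p = 0.210) but did with the t-test named in the study's methods (adjusted p = 0.0374). With that t-test and the same adjustment Hes1, Hey1, Hey2 and Notch1 did not pass (adjusted p = 0.0564, 0.146, 0.0744 and 0.0584).

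Rbpj binds DNA at the core motif TGGGAA, and promoters of 3 of the 6 Notch genes that fell are shown, those of Hes1 and Hey2 because they hold this motif and that of Jag1 because its fall was the largest of the 6. The windows are the 250 bases before the RefSeq start site on GRCr8, written 5′ to 3′ on the gene's strand, with TGGGAA or its reverse complement in capitals. Hes1 lies at chr11:84213046-84213295 (minus strand), Hey2 at chr1:28640850-28641099 (plus strand) and Jag1 at chr3:144894884-144895133 (minus strand).
Hes1: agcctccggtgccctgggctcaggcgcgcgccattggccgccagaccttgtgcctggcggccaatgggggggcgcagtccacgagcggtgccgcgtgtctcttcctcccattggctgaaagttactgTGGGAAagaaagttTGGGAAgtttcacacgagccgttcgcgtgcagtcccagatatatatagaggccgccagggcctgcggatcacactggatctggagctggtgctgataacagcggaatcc
Hey2: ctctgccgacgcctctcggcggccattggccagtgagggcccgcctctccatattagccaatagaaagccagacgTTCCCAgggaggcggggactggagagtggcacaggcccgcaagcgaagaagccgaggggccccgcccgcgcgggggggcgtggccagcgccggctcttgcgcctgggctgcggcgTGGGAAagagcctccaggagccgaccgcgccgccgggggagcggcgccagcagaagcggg
Jag1: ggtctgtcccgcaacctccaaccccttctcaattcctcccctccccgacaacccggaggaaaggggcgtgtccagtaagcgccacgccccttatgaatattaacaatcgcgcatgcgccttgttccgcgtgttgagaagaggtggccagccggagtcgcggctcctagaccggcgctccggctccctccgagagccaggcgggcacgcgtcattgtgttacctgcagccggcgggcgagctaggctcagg
In Hes1 the motif started 123 and 109 bases before the start site, both times in the gene's direction. In Hey2 it started 175 bases before it in reverse and 60 bases before it in the gene's direction. The windows of Jag1, Notch1 and Notch2 did not hold these letters. Both strands were searched over 300 bases, 250 before the start and 50 from it on, and 32 members had such a window. TGGGAA stood in 10 of these 32 windows, against 25.7% of all 33469 promoter windows. It stood in 5 of the 13 of genes that fell, in 2 of the 7 of genes that rose and in 3 of the 12 of genes not called. The motifs CACGTG and CACNAG, where N is any base, were searched as well. They stood in 3 and 13 of the 32 windows, against 6.42% and 43.1% of all promoter windows. A match is a description of the sequence and not a binding site.

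Ephrin genes moved both ways, and within the ephrin ligands the responses of related genes differed in size and direction. Of 10 ephrins and Eph receptors 4 rose and 2 fell, with a median of 0.36. Efnb1, which encodes the transmembrane ligand ephrin-B1, read 9.66, 9.92 and 9.57 on DMSO arrays and 6.41 and 6.28 on POG arrays. It fell by 3.37 ± 0.18, a 10.4-fold lower signal (adjusted p = 5.00e-07), to just above the lower quartile. Its paralog Efnb2, a transmembrane ligand known from arterial and mural cells, read 11.01, 10.78 and 10.75 against 10.55 and 10.29. That difference of -0.43 (95% interval -0.83 to -0.025) did not pass (adjusted p = 0.0763), although the groups did not overlap, and it passed after centering (adjusted p = 0.0486) and among the brighter probe sets (adjusted p = 0.0415). Efna1, a ligand anchored by glycosylphosphatidylinositol, read 6.01, 5.12 and 5.59 against 6.80 and 6.60. It rose by 1.13 ± 0.25 (adjusted p = 0.00493) from a low DMSO mean of 5.57, and did not pass without POG replicate 1 (1.03, adjusted p = 0.0505). The anchored ligands Efna4 (0.44, adjusted p = 0.0550) and Efna5 (0.28, adjusted p = 0.195) did not pass.

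Among the Eph receptors, which are receptor tyrosine kinases, 3 rose and 1 fell. Ephb2, a receptor of the B class ephrins, read 6.14, 6.53 and 6.46 on DMSO arrays and 7.39 and 8.19 on POG arrays, and rose by 1.41 ± 0.25 (adjusted p = 0.00136). Epha7 read 4.46, 4.40 and 3.98 against 6.16 and 5.62, and rose by 1.61 ± 0.22 (adjusted p = 0.000341), with both means in the range of background. Epha4 read 5.29, 5.54 and 5.34 against 5.67 and 6.39. It rose by 0.64 ± 0.23 (adjusted p = 0.0409), but the difference was 0.28 (adjusted p = 0.370) without POG replicate 2. The Epha4 call was also lost when any 1 DMSO array was left out (adjusted p = 0.0585 to 0.0838) and after quantile normalization (adjusted p = 0.0945). Epha2, a receptor of A class ephrins that is prominent in epithelial and vascular cells, read 7.19, 7.63 and 7.28 against 6.36 and 6.24. It fell by 1.07 ± 0.19 (adjusted p = 0.00153), opposite to the rise of its ligand gene Efna1. Epha3 had low means of 4.39 and 4.51, and its difference of 0.12 (95% interval -0.39 to 0.63) turned to -0.22 without POG replicate 1. With the methods' t-test the rises of Efna1, Epha4, Epha7 and Ephb2 did not pass after adjustment (adjusted p = 0.0506 to 0.196).

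**Figure D2:**
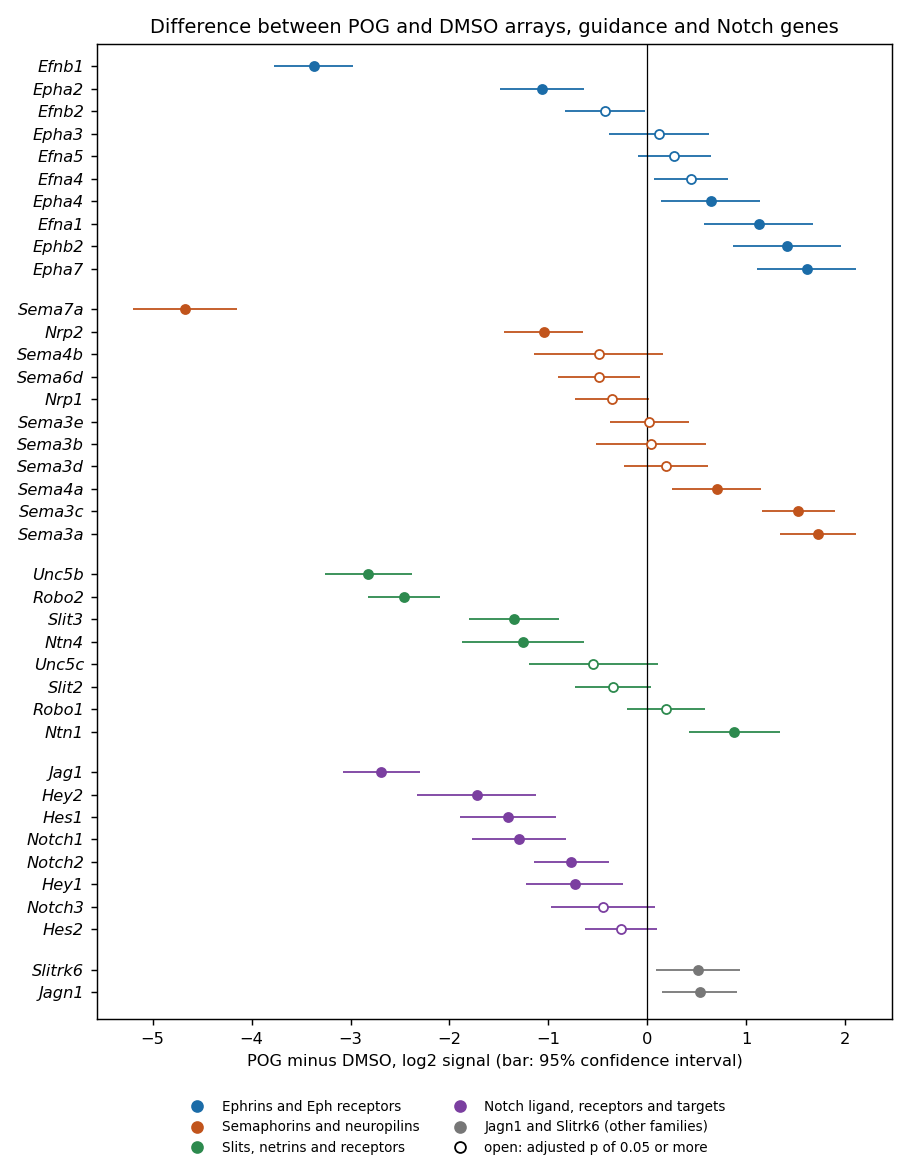
The difference between POG and DMSO arrays on the log2 scale is plotted for each of the 39 genes by family, with 95% confidence intervals from the limma fit as bars, filled points past the adjusted threshold and open points not. All 8 Notch genes lie below 0, from -2.69 to -0.26, while the ephrin and semaphorin genes lie on both sides.

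Semaphorin genes also moved both ways. Of 9 semaphorins 3 rose and 1 fell, and 1 of the 2 neuropilins fell. Sema7a, a semaphorin anchored by glycosylphosphatidylinositol that binds integrins and plexin C1, read 8.66, 9.14 and 9.41 on DMSO arrays and 4.56 and 4.23 on POG arrays. It fell by 4.68 ± 0.23, a 25.5-fold lower signal (adjusted p = 3.50e-07), from above the median array signal to background. This was the largest difference among the 39 genes, and 0.187% of all probe sets had a difference as low or lower. Sema3a, a secreted cue that repels axons and acts through Nrp1, read 6.27, 6.23 and 6.07 against 7.80 and 8.03. It rose by 1.73 ± 0.17 (adjusted p = 3.92e-05), with all POG readings more than 1 log2 unit above the DMSO readings. Sema3c, a secreted semaphorin known from heart outflow development, was strongly read at 12.94, 13.08 and 13.02 against 14.55 and 14.53. It rose by 1.53 ± 0.16, a 2.88-fold higher signal (adjusted p = 6.07e-05). Sema4a, a transmembrane semaphorin, read 5.73, 6.24 and 5.80 against 6.72 and 6.53 and rose by 0.70 ± 0.20 (adjusted p = 0.0177), a call lost without POG replicate 1 (adjusted p = 0.116), without POG replicate 2 (adjusted p = 0.0573) and after quantile normalization (adjusted p = 0.0619).

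The other class 3 semaphorins did not pass. Sema3d, at 9.13 and 9.32, differed by 0.19 (95% interval -0.23 to 0.62), Sema3e, at 10.94 and 10.97, by 0.022 (-0.37 to 0.42), and Sema3b, at 8.86 and 8.90, by 0.037 (-0.52 to 0.59). These intervals leave out differences as large as those of Sema3a or Sema3c. Nor did Sema4b (-0.49, adjusted p = 0.189) and Sema6d (-0.49, adjusted p = 0.0536) pass. Sema4b passed without POG replicate 1 (-1.02, adjusted p = 0.0228), and Sema6d, whose means were low at 4.62 and 4.13, passed without DMSO replicate 1 and after centering (adjusted p = 0.0491 and 0.0278). Nrp2, the neuropilin co-receptor for class 3 semaphorins and vascular endothelial growth factors, was strongly read at 15.40, 15.20 and 15.19 against 14.37 and 14.06. It fell by 1.05 ± 0.18 (adjusted p = 0.00128), while Nrp1 had low means of 5.48 and 5.12 and did not pass (-0.36, adjusted p = 0.108) except after quantile normalization (adjusted p = 0.0468).

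Of 8 slit and netrin genes measured 4 fell and 1 rose, with a median of -0.90, and 2 of the 4 receptors and 2 of the 4 ligands were among those that fell. Robo2, a receptor for slits, read 11.08, 11.09 and 11.10 on DMSO arrays and 8.60 and 8.66 on POG arrays, and fell by 2.46 ± 0.16 (adjusted p = 2.01e-06). Robo1, the other measured slit receptor, had means of 6.82 and 7.01 and did not pass (0.19, 95% interval -0.21 to 0.58, adjusted p = 0.405). Unc5b, a netrin receptor known from endothelium, read 15.70, 15.52 and 15.62 against 13.05 and 12.54. It fell by 2.82 ± 0.20, a 7.05-fold lower signal (adjusted p = 3.03e-06), and stayed strongly read in POG-treated cells. Unc5c, at 6.41 and 5.87, did not pass (-0.55, adjusted p = 0.151), but passed without DMSO replicate 2 (-0.87, adjusted p = 0.0155).

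Among the ligands, the secreted cue Slit3 read 14.46, 14.63 and 14.04 on DMSO arrays and 13.03 and 13.03 on POG arrays, and fell by 1.35 ± 0.20 (adjusted p = 0.000599). Slit2 read 14.04, 14.02 and 13.86 against 13.73 and 13.53 and did not pass (-0.34, 95% interval -0.73 to 0.040, adjusted p = 0.125), although it did with trend and robust variance settings (adjusted p = 0.0442). Both slits were strongly read in both groups. Ntn4, a netrin of basement membranes, read 8.46, 8.07 and 7.66 against 6.44 and 7.17 and fell by 1.26 ± 0.28 (adjusted p = 0.00481), a call lost without POG replicate 1 (-0.89, adjusted p = 0.0639). Ntn1, the founding axon guidance netrin, read 5.28, 5.54 and 5.03 against 5.99 and 6.34 and rose by 0.88 ± 0.21 (adjusted p = 0.00669). Both Ntn1 means were at or under the lower quartile, and the call was lost without POG replicate 2 (0.71, adjusted p = 0.0750). With the methods' t-test neither netrin passed after adjustment (adjusted p = 0.122 for Ntn4 and 0.0907 for Ntn1).

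Jagn1, which encodes an endoplasmic reticulum protein of the early secretory pathway, read 9.96, 9.97 and 10.16 on DMSO arrays and 10.59 and 10.53 on POG arrays and rose by 0.53 ± 0.17 (adjusted p = 0.0275). Slitrk6, a neuronal transmembrane protein, rose by 0.51 ± 0.19 (adjusted p = 0.0498) from low means of 4.60 and 5.11. Both rises were the smallest among the genes called, and both calls were lost after centering and without POG replicate 2 (Jagn1 adjusted p = 0.0513 and 0.0923, Slitrk6 adjusted p = 0.0957 and 0.314). Without DMSO replicate 1, without DMSO replicate 2 or without POG replicate 1, Jagn1 did not pass either (adjusted p = 0.0547, 0.0750 and 0.118), nor did Slitrk6 without each DMSO array (adjusted p = 0.0503, 0.0852 and 0.127). Apart from these, 8 genes rose and 14 fell.

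**Figure D3:**
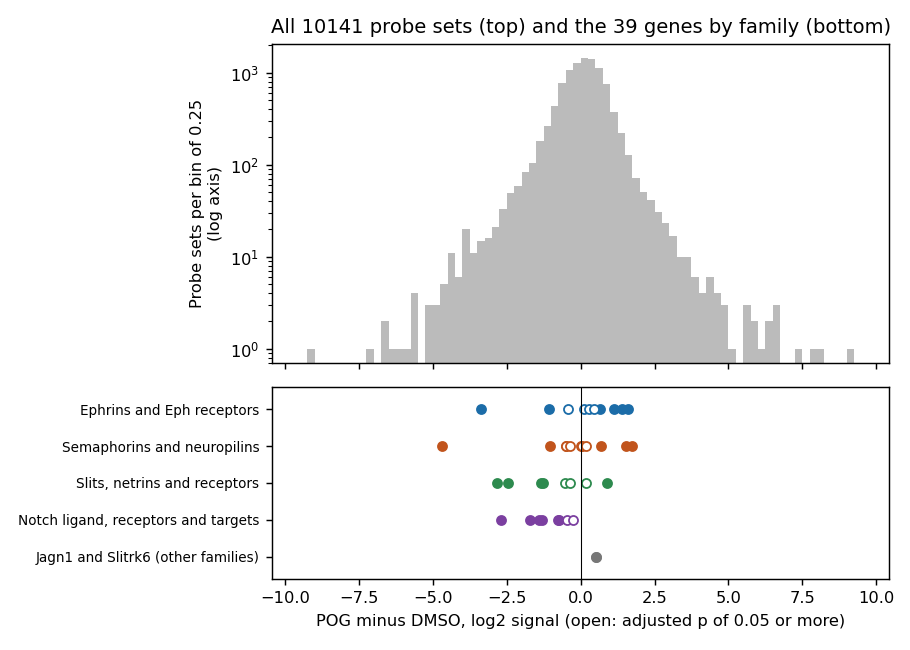
The top panel counts all 10141 probe sets by their difference between POG and DMSO arrays in bins of 0.25 on the log2 scale, with a logarithmic count axis, and the bottom panel places the 39 genes on the same axis by family, filled where the adjusted threshold was passed. The medians are 0.11 over all probe sets and -0.36 over the 39 genes, and the Notch genes all lie at or below -0.26.

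Partners of these pathways were described from 3 lists. Of 39 genes that process Notch or act with it in the nucleus 17 were measured, 2 rose and 4 fell, with a median of -0.0033 against 0.11 over all probe sets. Rbpj, the DNA-binding partner of cleaved Notch, read 11.48, 11.89 and 12.28 on DMSO arrays and 12.97 and 12.58 on POG arrays and rose by 0.89 ± 0.24 (adjusted p = 0.0143), unlike Hes1, Hey1 and Hey2. The protease Adam17 rose (0.48). Nicastrin, Ncstn, a subunit of the γ-secretase that cleaves Notch, fell by 0.78 ± 0.17. The other γ-secretase subunits measured, Psenen (0.18), Psen2 (0.12), Aph1a (-0.053) and Aph1b (-0.36), were not called. Numbl (-1.19) and Numb (-0.60), which encode adaptors that restrain Notch, and Dlk2 (-0.60), a Delta-like protein, also fell.

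Of 51 effectors of ephrin and semaphorin receptors 30 were measured, 7 rose and 13 fell, with a median of -0.064. Mical2, a monooxygenase that oxidizes actin, read 15.05, 14.99 and 15.00 on DMSO arrays and 11.29 and 11.23 on POG arrays, and fell by 3.75 ± 0.16. Dpysl3, a collapsin response mediator protein of semaphorin signaling, fell by 3.20 ± 0.18, from 15.06 to 11.87 in the mean. The kinase Limk2 (-1.93), the Ras GTPase-activating protein Rasa1 (-1.43) and the Rac GTPase-activating protein Chn1 (-1.18) fell, and the kinase Fyn rose (1.54). Of 37 slit and netrin partners 19 were measured, 6 rose and 10 fell, with a median of -0.66. Enah, an actin regulator of the Ena/VASP family, fell by 2.25 ± 0.18. The heparan sulfate proteoglycans Sdc2 (-1.65), Sdc3 (-1.71) and Sdc4 (-1.27) fell, and Rgma (1.42), a repulsive guidance molecule, and the adenosine receptor Adora2b (2.03) rose.

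Markers listed for other cell types moved in the same comparison. Of 15 smooth muscle and pericyte markers 11 were measured, 10 fell and 0 rose, with a median of -3.81, and the log2 of their summed signal was 20.06 to 20.15 on DMSO arrays and 18.04 to 18.11 on POG arrays. Mcam (-6.63), Myh11 (-5.91), Actg2 (-5.58) and Myocd (-4.47) led these falls, beside the falls of the 6 Notch genes called, and their part in those was not tested. Mcam encodes CD146, which the study stained for to follow endogenous TSPCs. It reported more CD146-positive cells in injured tendons of aged rats given POG, opposite in direction to the fall of Mcam. That staining shows protein in tissue and the arrays show RNA of passaged cells, so they are not directly comparable. Acta2 (means of 18.37 and 16.00) and Tagln (18.92 and 16.97) were strongly read in both groups. This list therefore cannot tell mural cells from TSPCs. Of 14 leukocyte markers 5 were measured and 5 rose, with a log2 summed signal of 8.18 to 9.15 and 9.71 to 10.09. Lyz2 (2.06), Cd53 (2.31), Cd68 (1.52) and Fcer1g (1.22) led these rises from DMSO means of 5.18 or less, in the range of background. Fcer1g stayed there in POG-treated cells, at a mean of 4.77. Cd14, the strongest read, had means of 8.15 and 9.24, and the pan-leukocyte marker Ptprc was not analysed here. Of 15 endothelial markers 4 were measured, all with means of 6.40 or less in both groups. Kdr rose (1.85), Cd34 fell (-1.39), and Erg (-0.57) and Flt1 (-0.18) did not pass. Their log2 summed signal was 7.10 to 7.45 and 7.25 to 7.27, and Pecam1 and Cdh5 were not analysed here. Of 14 Schwann cell and neural markers only Map2 (1.41) and S100b (1.18) were measured, and both rose, with a log2 summed signal of 7.37 to 7.70 and 8.63 to 8.97.

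**Figure D4:**
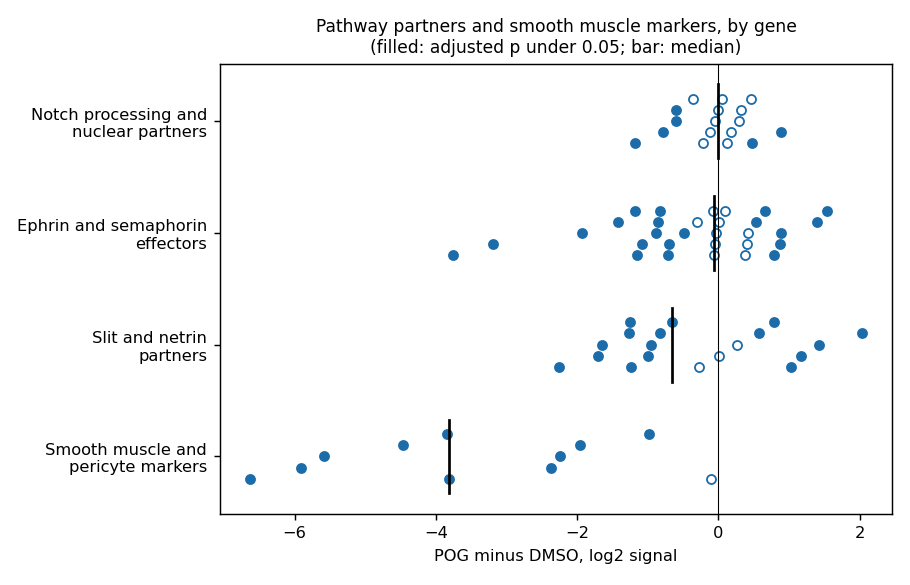
Each point is a gene's difference between POG and DMSO arrays on the log2 scale, for 3 lists of pathway partners and for smooth muscle and pericyte markers, filled where the adjusted p was under 0.05, with a bar at each list's median. The medians are -0.0033, -0.064, -0.66 and -3.81 from top to bottom, and vertical offsets within a list only keep points apart.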

How the data were processed

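The authors deposited log2 signals, 1 value per probe set and array, made with robust multi-array average (RMA). The study's methods name Affymetrix default settings and global scaling, and the submitters' processing notes give no RMA version. Both deposited tables of log2 values were identical (largest difference 0). The selection of the 10141 probe sets by the authors is not described in these sources. Platform annotation named 7240 of them with 1 gene symbol and 0 with several, and left 2901 unnamed. The study's array and the annotated platform have different names and may not be 1 design, so gene names rest on matching probe set identifiers. The 39 symbols used were unchanged in the GRCr8 gene table.

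POG and DMSO arrays were compared with limma 3.58.1 in R 4.3.3, with a two-sided moderated test and Benjamini-Hochberg adjustment over all 10141 probe sets at a threshold of 0.05. Intervals are 95% intervals of that fit. The number of arrays limits the precision. The study's own cutoffs (unadjusted p under 0.05, fold above 1.5) were applied to the limma fit as well. The members, lists and tests were chosen with earlier results of these data known. Every member is reported, and each list is represented by up to 6 pathway genes or 4 cell type markers with the smallest p-values. Col1a1, Scx, Acta2, Tagln, Cd14 and the γ-secretase subunits not called were named besides, after their values were seen. Promoter sequences came from RefSeq (GRCr8). Alternatives were the second table, quantile normalization, median centering, brighter probe sets (mean of at least 8.45), trend and robust moderation, array weights, the replicate block, each array left out, the methods' t-test, the study's thresholds and, added later, the members without Jagn1 and Slitrk6.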

Additional observations from a re-analysis of the deposited data

How the results depend on the processing

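All 24 genes called kept their direction under every alternative run for them. Leaving out or weighting arrays could not turn it, because their groups did not overlap, and the t-test and moderation settings use the same difference. Kept direction is therefore no sign of robustness here. Of the 24 genes, 10 also stayed past the threshold in all. Leaving the methods' t-test aside, 15 did. Of the 15 genes not called, 7 passed in some alternative and 5 changed sign in some. Sema3b turned to -0.046 after quantile normalization and to -0.050 after centering, and ran from -0.11 (without DMSO replicate 1) and -0.080 (without DMSO replicate 2) to 0.30 when an array was left out. Sema3e turned to -0.065 after centering. With the replicate block it turned to -0.050, which is the same estimate as without DMSO replicate 3. When an array was left out, Sema3e ran from -0.050 (without DMSO replicate 3) and -0.0050 (without DMSO replicate 2) to 0.12. Robo1 turned to -0.00067 after quantile normalization. Epha3 ran from -0.22 (without POG replicate 1) to 0.46 and Sema4b from -1.02 to 0.033 (without POG replicate 2). Among the 5071 brighter probe sets 13 members were tested, of which 2 rose and 7 fell. There 2894 of the 5071 probe sets were changed, against 4694 of 10141 in the main fit. With the methods' t-test after adjustment 3 members rose, 10 fell and 2078 probe sets were changed. Leaving out an array gave 5 to 8 members that rose, 12 to 15 that fell and 2900 to 4347 changed probe sets, the lowest without POG replicate 2, and a single remaining POG array was taken to scatter as the others do. The replicate block gave 8 members that rose, 13 that fell and 4193 changed probe sets. With the block Hey1, Sema4a and Slitrk6 no longer passed (adjusted p = 0.0711, 0.0536 and 0.141), and no other member's call changed. Only DMSO had a replicate 3, so the block's differences equal those without DMSO replicate 3. For the differences it is therefore no separate check. Same-numbered arrays showed no shared deviation (correlations of 0.0042 and 0.0052), so the numbers were not taken to pair the arrays. Quantile normalization and centering moved the median of all probe sets by -0.061 and -0.087. Low signal limits what can be said of the genes at or under the lower quartile.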

Other observations

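Some of the genes lie close together in the rat genome, and several near neighbors differed in their calls. In the GRCr8 gene order 4 class 3 semaphorin genes share a stretch of chromosome 4, with 4 coding genes between Sema3c and Sema3e, 12 between Sema3e and Sema3a, and 0 between Sema3a and Sema3d. Sema3c and Sema3a rose by 1.53 and 1.73, while Sema3e and Sema3d, which lie within the same stretch, differed by 0.022 and 0.19 and did not pass. On chromosome 11, 1 coding gene separates Robo1 from Robo2. Robo2 fell by 2.46 (95% interval -2.82 to -2.10) and Robo1 differed by 0.19 (95% interval -0.21 to 0.58). On chromosome 2, 1 coding gene separates Efna1, which rose by 1.13, from Efna4, which did not pass at 0.44. Epha3 and Robo1, with 13 coding genes between them, both did not pass (0.12 and 0.19). The intervals of Efna1 and Efna4 overlap, and differences between neighbors were not tested beyond these intervals.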
